A study of Sus scrofa with 6 samples.

Results

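The kinesins and tubulins of the pig oocyte were followed through the 59 genes of the deposited expression table whose symbol begins with KIF followed by a digit or C, or with TUBA, TUBB, TUBD, TUBE or TUBG, out of 29861 genes in all. The rule uses gene symbols, the family was taken up with earlier results of these data known, and the members comprised 41 KIF genes and 18 TUB genes. RNA was sequenced from pooled pig oocytes of 3 groups with 2 samples each: control oocytes, oocytes under heat stress, and oocytes under heat stress that were also given NMN (nicotinamide mononucleotide, a precursor of the coenzyme NAD+). The oocytes came from abattoir ovaries and were matured in vitro within their cumulus cells, and heat was applied during the first 24 h of that culture. The labels give every sample the GV (germinal vesicle) stage at 24 hours, whereas the study's methods describe RNA from metaphase II oocytes, so the meiotic stage of the samples is uncertain. No group received NMN without heat, so the effect of NMN on unheated oocytes was not measured.

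Microtubules are hollow polymers of alpha and beta tubulin dimers, and gamma tubulin rings start their growth. In the oocyte they form the meiotic spindle, which separates homologous chromosomes and then sister chromatids into very unequal daughters. Kinesins are motors that use ATP to walk along microtubules or to take their ends apart. Some build the spindle or finish cytokinesis, and others carry mitochondria, vesicles and mRNA. A growing oocyte stores mRNA for these proteins, and during maturation, when transcription is silent, its mRNA level depends on storage, polyadenylation and decay. The study had examined spindle shape and tubulin acetylation in the same groups, and the comparison here asks which mRNAs of the microtubules and their motors differed.

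Levels were FPKM (fragments scaled to transcript length and to library size), a unit that allows genes to be compared with each other. Of the 59 genes, 44 were above 0 in all 6 samples and 2 (KIF21B and KIFC2) were at 0 in all of them. A mean of at least 1 FPKM over the 6 samples was required for testing, which 21 members and 4713 genes passed. The 12 listed oocyte markers had a summed level of 3024 to 3630 FPKM. The 19 listed cumulus or granulosa cell markers summed to 5.79 to 17.9 FPKM, of which INHBA made up all but 1.02 to 2.26 FPKM, and 4 of the 19 were at 0 throughout. The 3 listed blood markers summed to at most 0.439 FPKM. Genes encoded by mitochondrial DNA took 61.7% and 66.4% of all FPKM in control oocytes, 62.4% and 71.6% under heat alone, and 74.2% and 74.7% under heat with NMN. In such pooled samples less RNA per oocyte and fewer oocytes with that RNA cannot be told apart.

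In unstressed oocytes alpha tubulin mRNA outweighed beta tubulin mRNA, and a few cytokinesis and spindle kinesins outweighed all transport kinesins. TUBA1B, a major alpha tubulin of dividing cells, had the highest level of all members, at 108 and 120 FPKM in the control samples. TUBA1A followed with 30.1 and 27.4 FPKM and TUBAL3, a divergent alpha tubulin, with 26.7 and 16.9 FPKM, so that the order of these last 2 was not resolved beyond their spread. Among the beta tubulins TUBB4B led with 13.4 and 25.9 FPKM. TUBB2B was at 7.47 and 12.2 FPKM and TUBB at 6.72 and 8.70 FPKM. TUBB1, TUBB4A and TUBB6 each averaged 0.269 FPKM or less over the 6 samples.

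The leading kinesin was KIF20A, which brings the chromosomal passenger complex to the spindle midzone, at 14.5 and 16.1 FPKM in control oocytes. KIF2C, which depolymerises microtubules at centromeres, followed at 4.63 and 5.75 FPKM. KIF20B, a motor of late cytokinesis, had 4.07 and 3.12 FPKM, and KIFC1, a minus-end motor that focuses spindle poles, had 3.22 and 3.50 FPKM. KIF11, the motor that pushes spindle poles apart in most dividing cells, stayed below the testing limit at 0.385 and 0.521 FPKM in control, 0.352 and 0.511 FPKM under heat and 0.462 and 0.315 FPKM with NMN, so that its groups overlapped. Of 14 spindle kinesins 9 were tested, against 2 of 16 transport kinesins, KIF5B and KIF1C. The summed FPKM in control oocytes was 37.8 ± 2.16 (SD, n = 2) for the spindle kinesins and 5.74 ± 0.399 (SD, n = 2) for the transport kinesins.

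**Figure D1:**
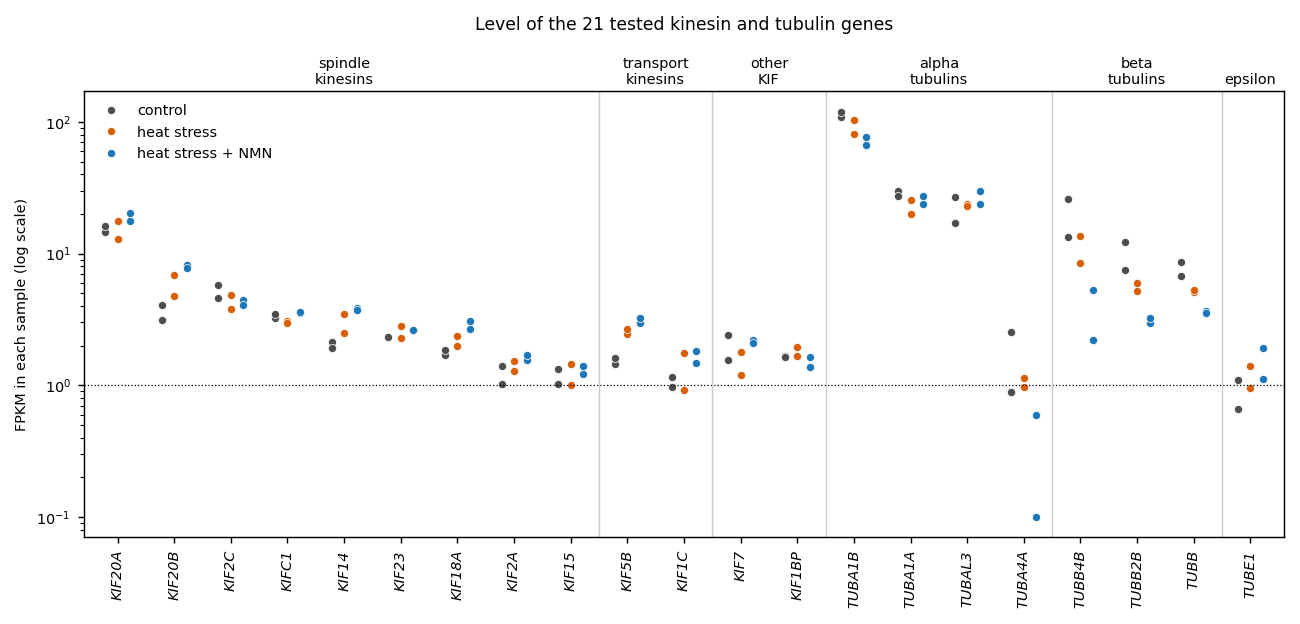
FPKM in each of the 6 samples (vertical axis, log scale) for the 21 tested members, grouped by role and ordered by mean level within a role, with the dotted line at the 1 FPKM testing limit. TUBA1B lies above 60 FPKM in every sample, and KIF20A leads the kinesins at 12.8 to 20.3 FPKM. The means of the 3 beta tubulins step down from control to heat stress to heat stress with NMN, but control and heat-stressed samples of TUBB4B overlap.

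The remaining roles were scarcely represented. KIF7, a regulator of Hedgehog signalling at the tip of cilia, had 2.42 and 1.56 FPKM in control, 1.19 and 1.78 FPKM under heat and 2.22 and 2.11 FPKM with NMN. KIF1BP, whose product binds kinesins and is not itself a motor, had a mean of 1.66 FPKM, and neither gene had P under 0.05 in any comparison. The 9 untested genes among the 11 other KIF genes averaged at most 0.417 FPKM. TUBE1, the epsilon tubulin of centrioles, passed the limit at a mean of 1.19 FPKM, and TUBD1, the delta tubulin, did not at 0.331 FPKM. None of the 5 gamma tubulin complex proteins passed, with TUBGCP3 highest at 0.591 FPKM, and TUBG1 was not analysed here.

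Cells with too much free tubulin destroy their tubulin mRNAs during translation, a feedback in which TTC5 recognises the first residues of the nascent chain. The first 15 coding bases are shown for the beta tubulins and for alpha tubulins at both ends of the range of change, with the 12 bases of the start codon and the next 3 codons in capitals. They are from the RefSeq annotation of the pig assembly Sscrofa11.1.
TUBB: ATGAGGGAAATCgtg
TUBB2B: ATGCGTGAGATCgtg
TUBB4B: ATGAGGGAGATCgtg
TUBA1B: ATGCGTGAGTGCatc
TUBA4A: ATGCGTGAATGCatc
TUBAL3: ATGAGGGAGTGCctt
In TUBB the 15 bases lie at chr7:23248027-23248041 on the plus strand, in TUBB2B at chr7:1955655-1955669 on the minus strand, and in TUBB4B at positions 667971 to 667985 of an unplaced scaffold on the minus strand. In TUBA1B they are split over 2 exons, chr5:15153516-15153518 and chr5:15152161-15152172, on the minus strand. Tubulin decay was not measured.

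Heat stress was compared with control to ask what heat did to these mRNAs. At unadjusted P under 0.05, the threshold used for each call below unless another is named, a pair of beta tubulins fell and a pair of cytokinesis kinesins and a transport kinesin rose. None of these calls held after adjustment over all tested genes. TUBB went from 6.72 and 8.70 FPKM in control to 5.09 and 5.28 FPKM in heat-stressed oocytes, a log2 fold change of -0.48 ± 0.14 (SE, n = 2 per group) on the log2(FPKM + 1) scale used throughout (limma, adjusted P = 0.159). TUBB2B went from 7.47 and 12.2 FPKM to 5.97 and 5.17 FPKM (log2 fold change -0.69 ± 0.22, adjusted P = 0.180). In both genes every heat-stressed sample lay below every control sample. What share of all tested genes had groups without overlap was not counted. Here and below, a lack of overlap between 2 samples and 2 samples is therefore a description only. TUBB4B went from 13.4 and 25.9 FPKM to 13.6 and 8.53 FPKM, so that its groups overlapped, and its log2 fold change of -0.74 ± 0.45 did not pass (adjusted P = 0.366).

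KIF5B, the ubiquitous heavy chain of conventional kinesin, which carries mitochondria and vesicles, rose from 1.46 and 1.62 FPKM to 2.43 and 2.67 FPKM (log2 fold change 0.49 ± 0.12, adjusted P = 0.130). KIF20B rose from 4.07 and 3.12 FPKM to 4.75 and 6.91 FPKM (0.56 ± 0.19, adjusted P = 0.189). KIF14, a midbody kinesin of cytokinesis, rose from 2.14 and 1.93 FPKM to 2.50 and 3.47 FPKM (0.38 ± 0.15, adjusted P = 0.219). The groups did not overlap in these 3 genes, nor in KIF18A, KIFC1, TUBA1A and TUBA1B, which did not pass. The other tested spindle kinesins did not pass, among them KIF20A with a log2 fold change of -0.01 ± 0.18 and KIF2C with -0.21 ± 0.16. TUBA1B had 108 and 120 FPKM in control and 103 and 81.1 FPKM in heat-stressed oocytes and did not pass either (-0.31 ± 0.16, adjusted P = 0.296).

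At unadjusted P under 0.05, 3 of the 21 tested members were higher in heat-stressed than control oocytes, against 12.7% of all tested genes, and 2 were lower, against 10.1%. No member and none of the 4713 genes had an adjusted P under 0.05 in limma. The median log2 fold change was 0.09 over the 9 spindle kinesins, 0.32 over the 2 transport kinesins, -0.32 over the 4 alpha tubulins and -0.69 over the 3 beta tubulins, with 0.05 over all tested genes. The calls changed with single samples: KIF5B alone was left without control replicate 2, KIF5B and TUBB without heat-stressed replicate 2, and KIF5B, TUBB and TUBB2B without either NMN-supplemented replicate, while KIF14 was lost without control replicate 1 and TUBB without heat-stressed replicate 1. When samples were scaled to the same summed FPKM outside mitochondrial genes, which put the median of all genes at -0.22, no member was called higher and 3 were called lower (TUBB, TUBB2B and TUBB4B), and relative to that median KIF5B stood at 0.48 and TUBB at -0.57, against 0.44 and -0.53 in the values as deposited. Heat-stressed replicate 1 had the highest summed FPKM, 290140 with 62.4% mitochondrial, against 163930 to 239210 with 61.7% to 74.7% in the other samples. This scaling therefore lowered that sample against all others.

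NMN-supplemented oocytes were compared with heat-stressed oocytes to ask what NMN changed under heat. At unadjusted P under 0.05 the 3 tested beta tubulins fell and no member rose, and again no call held after adjustment. TUBB4B went from 13.6 and 8.53 FPKM to 2.22 and 5.28 FPKM (log2 fold change -1.39 ± 0.45, limma, adjusted P = 0.342), and 0.594% of all tested genes had a lower fold change. TUBB2B went from 5.97 and 5.17 FPKM to 2.98 and 3.22 FPKM (-0.68 ± 0.22, adjusted P = 0.350). TUBB went from 5.09 and 5.28 FPKM to 3.64 and 3.56 FPKM (-0.43 ± 0.14, adjusted P = 0.350). No NMN-supplemented sample overlapped a heat-stressed sample in these 3 genes.

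The kinesins that were higher under heat had still higher mean levels with NMN, without passing the test. KIF20B had 8.25 and 7.74 FPKM with NMN, a log2 fold change of 0.41 ± 0.19 against heat stress (adjusted P = 0.384). KIF5B had 2.95 and 3.25 FPKM (0.21 ± 0.12, adjusted P = 0.427) and KIF14 had 3.85 and 3.75 FPKM (0.28 ± 0.15, adjusted P = 0.409). KIF20A, at 12.8 and 17.8 FPKM under heat and 20.3 and 17.5 FPKM with NMN, had overlapping groups and 0.30 ± 0.18 (adjusted P = 0.442). Among alpha tubulins TUBA1B had 76.4 and 66.8 FPKM with NMN (-0.35 ± 0.16, adjusted P = 0.383), below both heat-stressed samples. When samples were scaled to the same summed FPKM outside mitochondrial genes its fold change was 0.03. The median of all genes was 0.35 with that scaling, so TUBA1B still lay below it.

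At unadjusted P under 0.05, none of the 21 members was higher with NMN than under heat alone, against 7.15% of all tested genes, and 3 were lower, against 6.45%. No adjusted P of any tested gene was under 0.05 in limma. Median log2 fold changes were 0.19 for spindle kinesins, 0.20 for transport kinesins, -0.09 for alpha tubulins and -0.68 for beta tubulins, with 0.08 over all tested genes. No member was called without NMN-supplemented replicate 1, TUBB4B alone without NMN-supplemented replicate 2, KIF1C alone (higher) without heat-stressed replicate 1, and without heat-stressed replicate 2 there were 5, of which KIF14, KIF20A and KIF20B were higher and TUBA1B and TUBB4B lower. Scaled outside mitochondrial genes, TUBB4B alone was called, the median of all genes was 0.35, and TUBB2B stood at -0.72 relative to it, against -0.76 in the values as deposited.

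**Figure D2:**
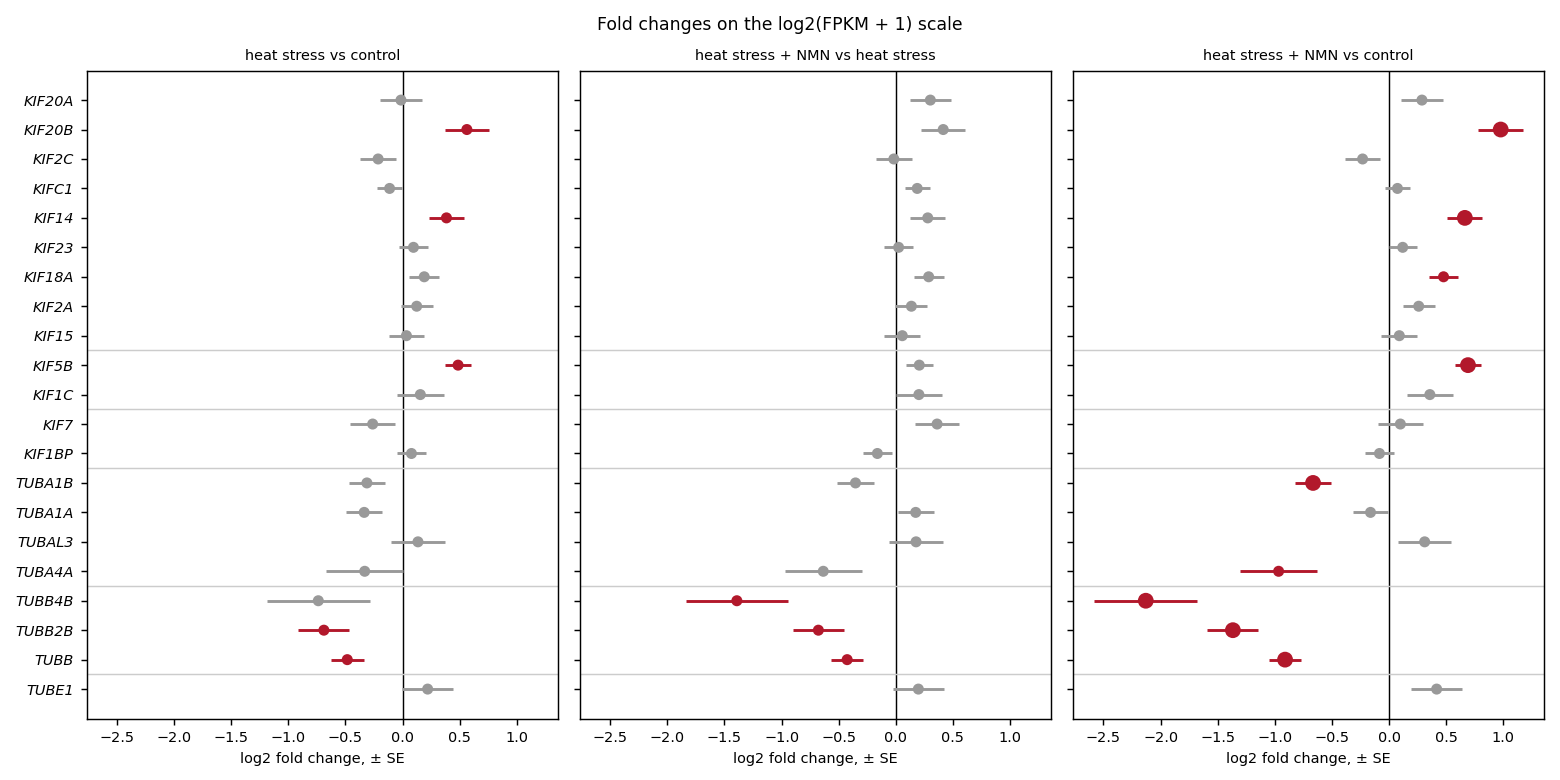
Log2 fold change with its SE (horizontal axis, log2(FPKM + 1) scale) of the 21 tested members in the 3 comparisons, in the same order as in the plot of levels, with red for unadjusted P under 0.05 and large points for adjusted P under 0.05. TUBB, TUBB2B and TUBB4B are left of 0 in all 3 panels, and KIF14, KIF20B and KIF5B are right of it.

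NMN-supplemented oocytes were also compared with control, which combines heat and NMN. Here the 3 tested beta tubulins and TUBA1B were lower and KIF20B, KIF5B and KIF14 were higher at adjusted P under 0.05. TUBB4B averaged 3.75 ± 2.17 FPKM (SD, n = 2) with heat and NMN against 19.7 ± 8.87 FPKM in control, 0.191 times its level (log2 fold change -2.13 ± 0.45, limma adjusted P = 0.0317). TUBB2B averaged 3.10 ± 0.165 FPKM against 9.83 ± 3.33 FPKM, or 0.315 times (-1.37 ± 0.22, adjusted P = 0.0235). TUBB averaged 3.60 ± 0.0592 FPKM against 7.71 ± 1.40 FPKM, or 0.467 times (-0.91 ± 0.14, adjusted P = 0.0219). No sample of one group overlapped the other in any of these genes.

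TUBA1B averaged 71.6 ± 6.80 FPKM against 114 ± 8.01 FPKM (-0.67 ± 0.16, adjusted P = 0.0407). TUBA4A had 0.892 and 2.54 FPKM in control, 0.975 and 1.14 FPKM under heat and 0.593 and 0.0998 FPKM with NMN (-0.97 ± 0.34, adjusted P = 0.0887). It reached the testing limit through its control samples, where it was highest, so its call is no independent evidence of a fall. TUBA1A had 27.2 and 24.0 FPKM with NMN and did not pass (-0.16 ± 0.16, adjusted P = 0.473), and TUBAL3 had 29.9 and 23.8 FPKM with a log2 fold change of 0.31 ± 0.23 (adjusted P = 0.360). The alpha tubulins thus did not move as one group.

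Of the kinesins, KIF20B averaged 7.99 ± 0.363 FPKM against 3.59 ± 0.674 FPKM in control, 2.22 times its level (0.98 ± 0.19, adjusted P = 0.0294). KIF5B averaged 3.10 ± 0.211 FPKM against 1.54 ± 0.115 FPKM, or 2.01 times (0.69 ± 0.12, adjusted P = 0.0237). KIF14 averaged 3.80 ± 0.0707 FPKM against 2.03 ± 0.148 FPKM, or 1.87 times (0.66 ± 0.15, adjusted P = 0.0374). KIF18A, which dampens chromosome movements at the metaphase plate, had 1.71 and 1.86 FPKM in control, 1.98 and 2.38 FPKM under heat and 3.09 and 2.67 FPKM with NMN (0.48 ± 0.13, adjusted P = 0.0533). Its 3 groups did not overlap.

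Other motors did not pass. KIF23, which forms the centralspindlin complex of the midzone, had 2.33 and 2.34 FPKM in control and 2.62 and 2.63 FPKM with NMN (0.12 ± 0.12, adjusted P = 0.508). KIFC1 had 3.22 and 3.50 FPKM in control, 3.08 and 2.98 FPKM under heat and 3.54 and 3.63 FPKM with NMN (0.07 ± 0.11, adjusted P = 0.642). KIF2C was the only tested kinesin with a negative fold change, at 4.44 and 4.07 FPKM with NMN (-0.23 ± 0.16, adjusted P = 0.311). KIF1C, a carrier of secretory vesicles, had 1.16 and 0.978 FPKM in control and 1.84 and 1.46 FPKM with NMN (0.36 ± 0.20, adjusted P = 0.240).

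At unadjusted P under 0.05, 4 of the 21 members were higher in NMN-supplemented than control oocytes, against 25.6% of all tested genes, and 5 were lower, against 15.7%. At adjusted P under 0.05, 3 were higher, against 12.4%, and 4 were lower, against 9.17%. The share of members that rose was therefore near that of all genes, and the calls among tubulins were all in the lower direction. The median log2 fold change was 0.26 over the spindle kinesins, 0.52 over the transport kinesins, -0.41 over the alpha tubulins and -1.37 over the beta tubulins, beside 0.11 over all tested genes. With the scaling outside mitochondrial genes 2 members were higher and 4 lower at unadjusted P under 0.05. At adjusted P under 0.05 no kinesin was then called, TUBB and TUBA1B were lost, and TUBA4A, TUBB2B and TUBB4B were lower. The fold changes of the lost members hardly moved. KIF5B was at 0.73 against 0.69 as deposited, KIF14 at 0.70 against 0.66, TUBA1B at -0.65 against -0.67 and TUBB at -0.91 in both. Relative to the median of all genes KIF20B stood at 0.89, against 0.87 as deposited. The 3 groups were fitted together, so these P-values also draw on the spread of the heat-stressed samples. What removed the calls was not tested. KIF18A was not called without control replicate 1 or NMN-supplemented replicate 1, and TUBA4A was not without NMN-supplemented replicate 2 and fell below the testing limit without control replicate 2. The adjusted calls rested on all 4 samples compared: none remained without control replicate 2 or without either NMN-supplemented replicate, and TUBB and TUBB2B alone remained without control replicate 1. An exact permutation test on 2 against 2 samples cannot give a two-sided P below 0.333.

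**Figure D3:**
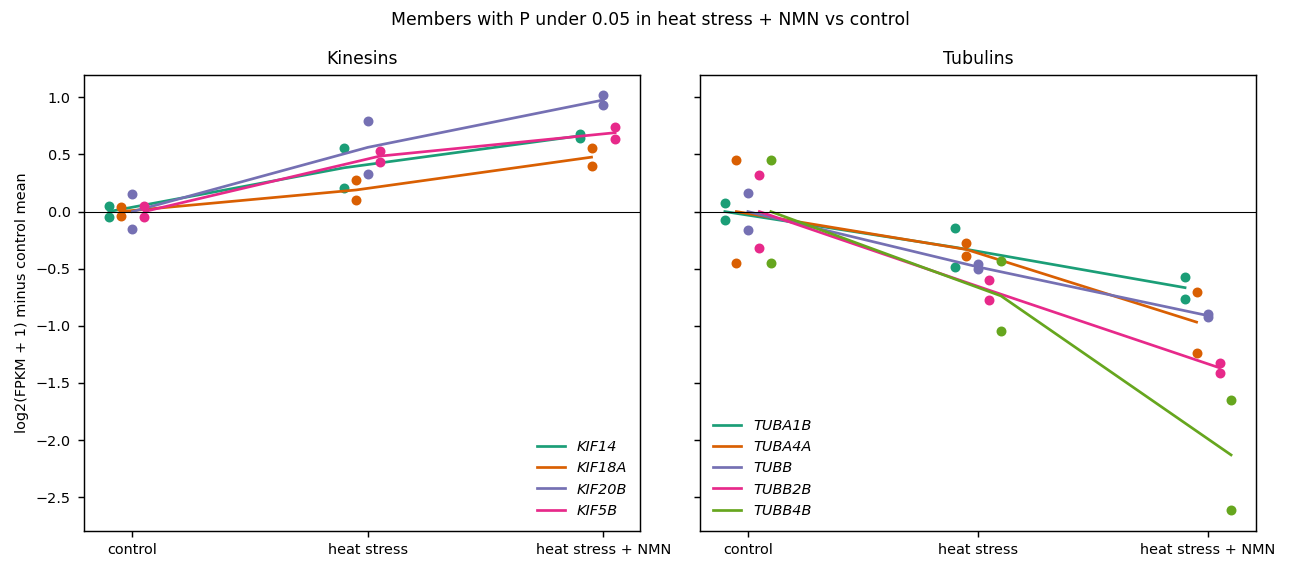
Log2(FPKM + 1) minus the control mean (vertical axis) in each sample for the 4 kinesins and 5 tubulins with unadjusted P under 0.05 between NMN-supplemented and control oocytes, with lines through the group means. The heat-stressed mean of each of the 9 genes lies between the control mean and the NMN-supplemented mean.

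These 9 genes were chosen for their difference between NMN-supplemented and control oocytes, which favours a heat-stressed mean between the other two, and the 3 comparisons share samples, so the order of the means is a description only. TUBB had log2 fold changes of -0.48 for heat against control, -0.43 for NMN against heat and -0.91 for NMN against control. For KIF20B they were 0.56, 0.41 and 0.98 in the same order.

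The summed FPKM of the 6 beta tubulin genes was 28.1 and 47.5 in control, 25.2 and 19.1 under heat and 9.0 and 12.1 with NMN, with no overlap between groups. TUBB4B made up 47.6% and 54.5% of it in control, 54.2% and 44.6% under heat, and 24.7% and 43.7% with NMN. Control and heat-stressed shares overlapped, and of the NMN-supplemented shares 1 was well below the rest and the other was close to a heat-stressed one. The alpha tubulin sum went from 166 and 167 FPKM in control to 154 and 125 FPKM under heat and 134 and 115 FPKM with NMN. The ratio of the alpha to the beta sum was accordingly 5.90 and 3.50 in control, 6.11 and 6.55 under heat and 14.9 and 9.48 with NMN. These sums, shares and ratios cover TUBA and TUBB symbols only. They leave out tubulin genes under locus symbols, among them the beta tubulin LOC100624785 at 9.52 and 18.2 FPKM in control. TUBB4B, TUBB2B, TUBA1B and TUBA1A each share a listed locus with other genes, and the tubulin genes are close in sequence, so that fragments could be split between them. In all, 11 of the 21 tested members share a listed locus, and KIF18A, KIF20A and KIF2C are among them.

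**Figure D4:**
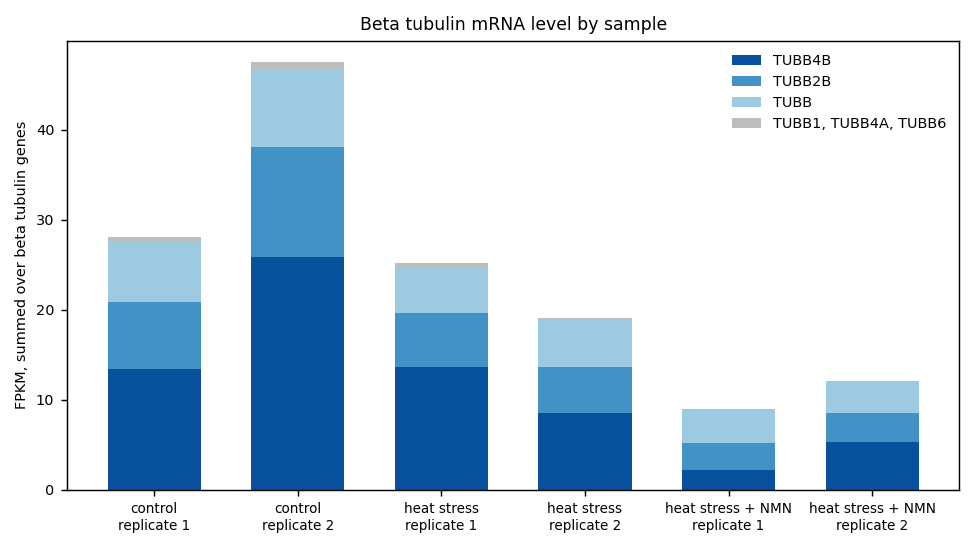
Summed FPKM of the beta tubulin genes with a TUBB symbol (vertical axis, from 0) in each of the 6 samples, stacked by gene. The sum is 28.1 and 47.5 FPKM in control and 9.0 and 12.1 FPKM with heat and NMN, and TUBB4B makes up most of the difference.

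Genes that serve microtubules and their motors were read from a list of 87, of which 85 were in the table and 31 were tested. In NMN-supplemented against control oocytes 10 of the 31 were higher and 6 lower at unadjusted P under 0.05, against 25.6% and 15.7% of all tested genes, and 6 were higher and 3 lower at adjusted P under 0.05, against 12.4% and 9.17%. In heat-stressed against control oocytes 5 were higher and 4 lower at unadjusted P under 0.05, against 12.7% and 10.1% of all tested genes, and with NMN against heat alone 6 and 3, against 7.15% and 6.45%. With so few genes the counts between NMN-supplemented and control oocytes are near those shares. Tubulin folding was led by a fall of TBCC, the cofactor that completes the assembly of the tubulin dimer, from 52.9 and 50.9 FPKM in control to 39.7 and 27.1 FPKM under heat and 16.4 and 21.4 FPKM with NMN (log2 fold change -1.42 ± 0.22, adjusted P = 0.0219). STMN1, which binds free tubulin dimers, had 20.7 and 25.0 FPKM in control, 16.7 and 16.4 FPKM under heat and 18.0 and 16.6 FPKM with NMN. It was lower with NMN than in control (-0.38 ± 0.13, limma adjusted P = 0.0856) but not lower than under heat alone. TTC5, the reader of nascent tubulin named above, had 1.71 and 1.30 FPKM in control, 1.32 and 1.06 FPKM under heat and 2.04 and 1.78 FPKM with NMN, and was higher with NMN than under heat (0.41 ± 0.15, adjusted P = 0.352).

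CLIP1, which tracks growing plus ends, rose from 2.43 and 2.11 FPKM in control to 4.97 and 4.67 FPKM with NMN (0.83 ± 0.15, adjusted P = 0.0249). SPAST, which severs microtubules, rose from 8.82 and 7.70 FPKM to 16.9 and 15.4 FPKM (0.89 ± 0.12, adjusted P = 0.0210). HAUS3, a subunit of the augmin complex that branches spindle microtubules, rose from 39.9 and 34.3 FPKM to 61.9 and 56.4 FPKM (0.66 ± 0.13, adjusted P = 0.0294). None of the 8 tested plus-end and pole genes, 6 nucleation genes and 2 severing genes was lower in any comparison at unadjusted P under 0.05, against 10.1%, 6.45% and 15.7% of all tested genes, shares that would give few such calls among so few genes. Among dynein genes the calls went both ways. DYNC1LI2, a dynein light intermediate chain, rose from 1.36 and 1.48 FPKM in control to 2.62 and 2.70 FPKM with NMN (0.60 ± 0.12, adjusted P = 0.0285). DYNLL1, a dynein light chain, fell from 218 and 281 FPKM to 104 and 102 FPKM (-1.25 ± 0.17, adjusted P = 0.0210).

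Of the partners of the kinesins, PRC1, which bundles midzone microtubules, had 17.7 and 19.3 FPKM in control and 25.1 and 23.4 FPKM with NMN (0.37 ± 0.11, adjusted P = 0.0626). RACGAP1, the partner of KIF23 in centralspindlin, had 1.36 and 1.58 FPKM in control and 0.436 and 0.743 FPKM with NMN (-0.64 ± 0.16, adjusted P = 0.0461). Like TUBA4A it reached the testing limit through its control samples, so its call is no independent evidence of a fall. None of the 14 genes for tubulin modification passed the testing limit, among them genes for adding and for removing acetyl, tyrosine or glutamate groups.

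What the members did was set beside what transcripts of like composition did. Over all 4713 tested genes the log2 fold change of NMN-supplemented against control oocytes had a Spearman correlation of -0.42 with the GC content of the longest annotated transcript and 0.40 with its length, across genes that are not independent replicates. Its median was 0.34 in the lowest of 4 GC classes of equal size (up to 42.0% GC) and -0.18 in the highest (above 55.0% GC). For heat stress against control the correlations were -0.48 with GC content and 0.30 with length, and for NMN against heat stress -0.13 and 0.28. KIF20B (36.0% GC, 5863 bases), KIF18A (36.4% GC, 3471 bases) and KIF5B (40.0% GC, 5852 bases) lie where genes in general rose, and TUBB4B (63.0% GC, 1780 bases) and TUBB2B (62.3% GC, 1688 bases) lie in the highest GC class, where genes in general fell. By length both lie just above the shortest of 4 classes (up to 1685 bases), in a class with a median of 0.04 for NMN against control. TUBB (52.9% GC) and KIF14 (50.9% GC) have a middling GC content, and KIF14, at 7361 bases, is in the longest of 4 length classes, where the median of all tested genes was 0.33.

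When the trends with GC content and length were removed in a step chosen after seeing the data, the beta tubulins still fell between control and NMN-supplemented oocytes, by 0.79 for TUBB, 0.96 for TUBB2B and 1.73 for TUBB4B on the log2 scale and had limma unadjusted P under 0.05. KIF20B, KIF14 and KIF5B kept unadjusted P under 0.05 with fold changes of 0.51, 0.49 and 0.31. With the length trend alone removed KIF14 was at 0.37 (limma, adjusted P = 0.110). With both trends removed KIF18A was at 0.08 and TUBA4A at -0.57, neither with P under 0.05. After adjustment TUBB alone of the 7 members was called (adjusted P = 0.0392), and TUBB2B (adjusted P = 0.0531) and TUBB4B (adjusted P = 0.0670) were not. For heat stress against control KIF14 (0.33) and TUBB (-0.39) kept unadjusted P under 0.05, and KIF20B (0.23), KIF5B (0.24) and TUBB2B (-0.40) did not.

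**Figure D5:**
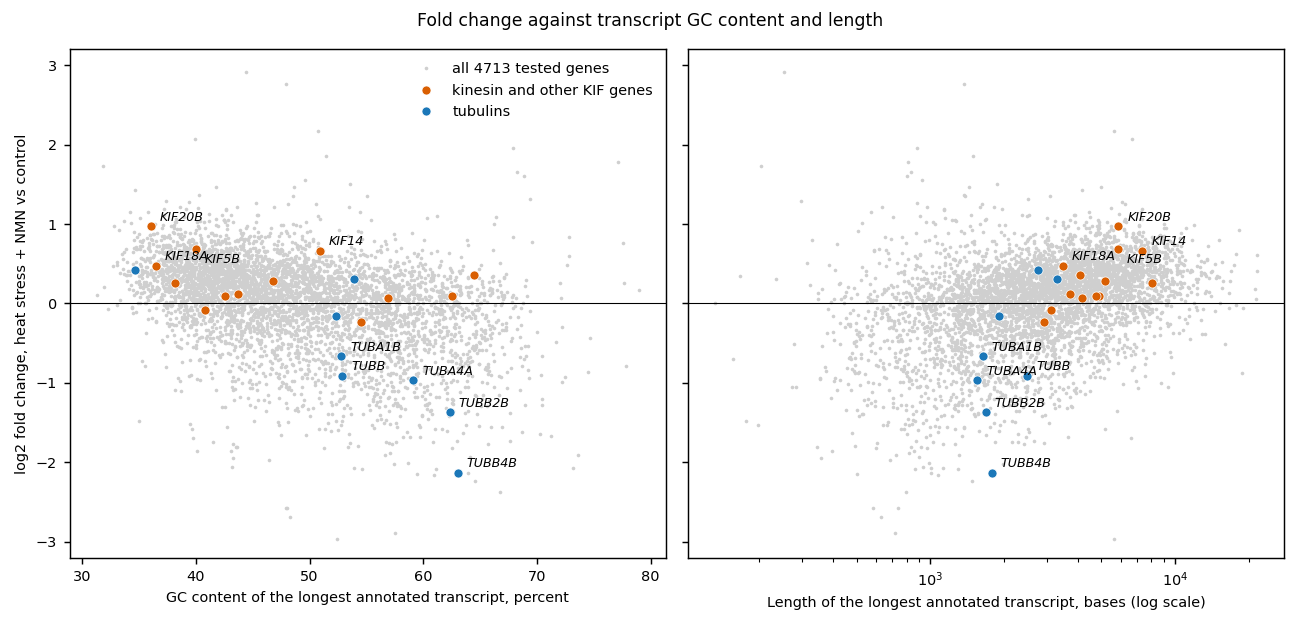
Log2 fold change between NMN-supplemented and control oocytes (vertical axis) against GC content in percent (left) and length in bases on a log scale (right) of the longest annotated transcript, for all 4713 tested genes in grey, KIF genes in orange and tubulins in blue. The tested alpha tubulins have 52.4% to 59.1% GC and 1553 to 3306 bases. The tested beta tubulins have 52.9% to 63.0% GC and 1688 to 2486 bases. TUBB4B at 63.0% GC lies below most genes of like composition.

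The 3′ ends of these transcripts were read because stored oocyte mRNAs are kept or lost through their poly(A) tails. The sequence words searched were the polyadenylation hexamer, AATAAA or ATTAAA, present in 69.7% of the genes searched, and the cytoplasmic polyadenylation element bound by CPEB1, TTTTAT or TTTTAAT. A stretch of 30 bases is shown for kinesins that were higher and tubulins that were lower, in RefSeq sequence of Sscrofa11.1 on the transcribed strand, with both words in capitals.
KIF20B: agtataaTTTTAATtcAATAAAgaaactgt
KIF5B: aatgtgTTTTATgtttaAATAAAgaggaaa
KIF18A: aatacATTAAAgatgtagaTTTTATaatgc
TUBB: ccaagagccaaaAATAAAtgggaattgaaa
TUBB4B: acagacaccaccATTAAAgccttttcatag
They lie at chr14:101594664-101594693 (KIF20B, plus strand), chr10:42637122-42637151 (KIF5B, minus strand), chr2:32331329-32331358 (KIF18A, plus strand) and chr7:23252207-23252236 (TUBB, plus strand), and for TUBB4B at positions 665657 to 665686 of the unplaced scaffold, on the minus strand. Only the transcribed strand and the last 100 bases of the longest transcript were searched, in genes with at least 100 bases after the stop codon. KIF14, which was also higher, and TUBB2B and TUBA1B, which were also lower, had neither word there and are not shown. TUBA4A, with 73 bases after the stop codon, was not searched.

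The cytoplasmic element was found in 9 of the 12 tested kinesins and in 1 of 6 tested alpha and beta tubulins searched, TUBAL3. Over all 38 kinesins searched, tested or not, it was found in 12 (31.6%), and over the 16 transport kinesins in 3 (18.8%). It was found in 17.1% of the 17490 genes searched and in 25.7% of the tested genes searched. Over the tested genes searched, the median log2 fold change of NMN-supplemented against control oocytes was 0.23 in the 1004 genes with the element and 0.10 in the 2909 without. Among the 12 kinesins the order was the other way round, 0.12 with the element and 0.36 without, and KIF14, KIF20A and KIF1C had no match in the window. A match does not show that an element is used, and poly(A) tails were not measured. The libraries were made from purified mRNA, and how far the purification selected for poly(A) is not given in the sources used here, so an mRNA level and its tail length cannot be told apart.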

How the data were processed

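RNA-seq libraries of 6 pig oocyte samples, 2 per group, were analysed. The authors trimmed reads with cutadapt and aligned them with tophat2 to the susScr11 genome, and the submitters' processing notes name Cufflinks 2.2.1, Cuffnorm and Cuffdiff. The deposited table holds FPKM per gene and sample, and the authors' fold changes and P-values in it and in their gene lists were not used. No read counts were used, so depth is unknown. From the commonest ratio of low values, the depth relative to control replicate 1 was 0.733 to 1.16. FPKM were log2-transformed after adding 1, and genes with a mean of at least 1 FPKM were tested in one fit of the 3 groups with limma 3.58.1 (trend, R 4.3.3) and adjusted by the Benjamini-Hochberg method. Members were counted at unadjusted P under 0.05. The script was tested on simulated data. Values per sample were planned for members with P under 0.05 in a comparison and the 3 highest members of each role group. They were also planned for 9 further named spindle, transport and tubulin genes. KIF1BP, TUBE1, TUBD1 and TUBGCP3 are given by their mean only. KIF3B, KIF24, TUBGCP2 and TUBGCP5 are not given singly, and some genes lack values for heat alone. The members, role groups and gene lists were chosen with earlier results of these data known. Nothing says that samples came from separate cultures, so P-values measure the spread between these samples, which may be technical. Positions, lengths and GC content were taken from RefSeq annotation release 106 of Sscrofa11.1, to which all gene symbols were matched. Other pseudocounts, filters, scalings, models and call rules, a replicate block and leaving out each sample were tried.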

Additional observations from a re-analysis of the deposited data

How the results depend on the processing

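With other settings the number of members with P under 0.05 in heat stress against control (5) became 8 with no filter on low values, 3 with a mean of at least 5 FPKM, 3 with only the 2 compared groups, 3 with the length trend removed, and 2 with the GC trend or both trends removed (these trend settings were chosen after seeing the data). It was 1 at P under 0.01, and by limma 0 with a log2 fold change over 1 or at adjusted P under 0.05. For NMN against heat stress the count (3) was 0 at P under 0.01 and at adjusted P under 0.05, and 1 with a log2 fold change over 1. For NMN against control the count (9) was 5 with a mean of at least 5 FPKM and 2 with a log2 fold change over 1. Leaving out 1 sample gave 1 to 6, 0 to 5 and 8 to 9 members in the 3 comparisons. At adjusted P under 0.05, 7 members passed for NMN against control, and none did when genes down to a mean of 0.1 FPKM or all genes were tested, 4 with the length trend and 3 with the GC trend removed. With the same summed FPKM outside mitochondrial genes the counts were 3, 1 and 6 members (TUBB, TUBB2B and TUBB4B, then TUBB4B). This scaling, which lowered heat-stressed replicate 1 against all other samples, shifted the median of all genes to -0.22, 0.35 and 0.12. Relative to it KIF20B rose by 0.50 and TUBB2B fell by 0.78 under heat, against 0.51 and 0.74 relative to the median before. Same-numbered samples did not deviate together (correlations of -0.032, 0.0081 and -0.014), and the replicate block gave 4, 3 and 9 members, with 3 instead of 7 at adjusted P under 0.05 for NMN against control.

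Fold changes that turned sign belonged to members without P under 0.05 in the comparison concerned. KIF18A and TUBA1B, which are among them, had P under 0.05 for NMN against control, where their sign did not turn. For heat stress against control the scaling without mitochondrial genes gave -0.031 for KIF18A, -0.13 for KIF1BP, -0.064 for KIF1C, -0.14 for KIF23 and -0.22 for TUBAL3, and equal medians gave 0.0049 for KIF20A. Removing the GC trend gave -0.11 for KIF18A, -0.095 for KIF1BP, -0.0048 for KIF23, 0.078 for KIFC1 and -0.14 for TUBE1. Removing both gave -0.11 for KIF18A, -0.11 for KIF1BP, -0.045 for KIF23 and -0.095 for TUBE1. Leaving out 1 sample gave -0.11 to 0.42 for KIF1C, -0.24 to 0.21 for KIF20A, -0.014 to 0.20 for KIF23 and -0.18 to 0.45 for TUBAL3. For NMN against heat stress the scaling without mitochondrial genes gave 0.056 for KIF1BP, 0.28 for KIF2C and 0.032 for TUBA1B. KIF23 was at -0.042, -0.026 and -0.055 with the length, GC and both trends removed, and KIF2C at 0.0079 with the GC trend removed. Leaving out 1 sample gave -0.059 to 0.46 for KIF1C, -0.085 to 0.13 for KIF23, -0.16 to 0.12 for KIF2C and -0.037 to 0.43 for TUBE1. For NMN against control KIF23 was at -0.0068, -0.031 and -0.10 with the length, GC and both trends removed, KIF7 at -0.11 and KIFC1 at -0.095 with the length trend removed, TUBE1 at -0.018 with the GC trend removed and TUBA1A at 1.8e-05 with both removed. Leaving out 1 sample gave -0.11 to 0.31 for KIF7 and -0.0038 to 0.63 for TUBAL3. Causes were not tested. Depth limits the members below 1 FPKM most.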

Other observations

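Further tubulin genes stand in the table under locus symbols, found by their annotated product after the values had been seen. LOC100624785, annotated as tubulin beta-2A chain on chromosome 7 beside TUBB2B, had 9.52 and 18.2 FPKM in control, 8.25 and 8.84 FPKM under heat and 4.69 and 4.21 FPKM with NMN. Its log2 fold change against control was -1.38 ± 0.28 with NMN (limma, adjusted P = 0.0305), and fragments may be split between it and the near-identical TUBB2B. LOC100510930, annotated as tubulin alpha-3 chain on chromosome 14, fell from 12.4 and 13.0 FPKM in control to 8.67 and 8.09 FPKM under heat and 7.53 and 7.93 FPKM with NMN (-0.65 ± 0.11 against control, adjusted P = 0.0237). LOC100155138, also annotated as tubulin alpha-3 chain, had 8.49 and 8.71 FPKM in control, 6.29 and 4.47 FPKM under heat and 6.03 and 5.58 FPKM with NMN. Its log2 fold change with NMN was -0.50 ± 0.16 against control (limma, adjusted P = 0.0785) and 0.11 ± 0.16 against heat. LOC100127131, annotated as tubulin alpha-1C chain, had 11.0 and 10.5 FPKM in control and 8.91 and 7.98 FPKM with NMN and did not pass (-0.32 ± 0.20, adjusted P = 0.286).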
